A study of Drosophila melanogaster with 12 samples.

Results

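The mitochondrial ribosomal protein genes of Drosophila melanogaster were followed through RNA interference against row, BEAF-32 or both. They were taken by name: every entry of the count table whose symbol starts with mRpL (named for the large subunit) or mRpS (named for the small subunit). This gave 73 genes of 16718, 47 of them mRpL and 26 mRpS. Large- and small-subunit genes are so called here by symbol alone, and the place of each protein in the ribosome was not checked. All 73 passed the filter on low counts, which left 7377 genes for testing, so no member was lost to it. No member was called higher or lower in any of the 7 comparisons tested, and at most 0.339% of tested genes were called in any of them. The group means of 70 of the 73 (95.9%) lay within 1.5-fold of each other, against 74.2% of tested genes.

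Mitochondria make a handful of respiratory chain subunits on their own ribosomes. The ribosomal RNAs come from mitochondrial DNA, while every protein of these ribosomes is encoded in the nucleus, translated in the cytosol and imported. Some of the proteins have counterparts in bacterial ribosomes and keep the bacterial number, and others, mostly with higher numbers, were added in the mitochondrial lineage.

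The cells were S2 cells, an embryonic Drosophila line of hemocyte (blood cell) character, in 4 groups of 3 libraries: cells given dsRNA to BEAF-32 (BEAF-32 RNAi), to row (row RNAi) or to both (double RNAi), and cells with no treatment (control). BEAF-32 binds DNA at insulators and is known for sites between closely spaced, divergent promoters, and row encodes a zinc-finger chromatin factor. The treated cells received dsRNA at 4 µg per ml and, 2 days later, at 8 µg per ml, and were collected after 2 more days. The control received no dsRNA, so a response to dsRNA as such and a response to the targeted gene cannot be told apart. The labels do not say whether the 3 libraries of a group came from separate cultures, so p-values measure the spread between libraries, which may be technical. Library totals ran from 2276507 to 3963412 counts, and levels are given in CPM, counts per 1000000 counts of a library after scaling by the TMM method. The counts come from the 3' ends of messages and were not divided by gene length.

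The targeted messages were partly depleted. BEAF-32 averaged 21.01 ± 5.31 CPM in BEAF-32 RNAi cells, 29.9 ± 3.59 CPM in double RNAi cells and 57.2 ± 12.6 CPM in control cells (SD, n = 3 each), and on the log2 scale it fell by 1.44 in BEAF-32 RNAi cells (adjusted p = 1.77e-04) and by 0.93 in double RNAi cells (adjusted p = 0.0322) against control. The row message averaged 26.2 ± 5.99 CPM in row RNAi cells, 31.4 ± 5.15 CPM in double RNAi cells and 50.7 ± 3.04 CPM in control cells. It fell by 0.95 in row RNAi cells (adjusted p = 0.0379). In double RNAi cells its log2 change of −0.71 did not pass (adjusted p = 0.202). The fall of row in row RNAi cells no longer passed on leaving out any control replicate or row RNAi replicate 1 or 3 (adjusted p up to 0.306), nor that of BEAF-32 in double RNAi cells on leaving out any double RNAi replicate or control replicate 1 or 3 (adjusted p up to 0.243), on unscaled library totals (0.0604) or in limma-voom (0.0702). As markers of the line, 9 of 10 plasmatocyte genes averaged at least 10 CPM and the 10 summed to 1358 to 1601 CPM in BEAF-32 RNAi cells, 1084 to 1279 in row RNAi cells, 1101 to 1224 in double RNAi cells and 1428 to 1549 in control cells. Of 6 lamellocyte genes 4 reached that level, with sums of 518 to 620.2, 533 to 664, 581 to 712 and 473 to 503 CPM in the same order of groups. The 6 were PPO3, atilla, shot, cher, mys and ItgaPS4, and how specific they are to lamellocytes was not checked. The part of the plasmatocyte and lamellocyte sums in the results was not tested. Of 3 crystal cell, 4 fat body and 4 muscle genes none averaged 10 CPM, and PPO1, lz, Fbp1, Fbp2, Lsp2 and Mlc1 were at 0 in every library. Of 4 neuronal genes 2 did (sum 23.9 to 40.3 CPM), and of 4 germ line genes 1 (sum 48.4 to 78.4 CPM).

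The family was read at moderate and rather even levels. Mean 3'-end levels over the 12 libraries ran from 3.59 CPM (mRpS5) to 259.8 CPM (mRpL14), with a median of 58.4 CPM and quartiles of 44.3 and 78.4 CPM, against a median of 31.7 CPM over all tested genes. A level of 20 to 200 CPM was found for 70 of the 73. After mRpL14, a large-subunit protein with a bacterial counterpart, the highest were mRpL49, a protein of the mitochondrial lineage, at 175.0 CPM and mRpL16, again with a bacterial counterpart, at 174.8 CPM. Above mRpS5 the lowest were mRpS31 at 17.8 CPM and mRpL43 at 23.6 CPM. In mRpS5, 2.78, 2.498 and 3.47 CPM were found in BEAF-32 RNAi cells, 3.33, 5.86 and 2.78 CPM in row RNAi cells, 4.43, 0 and 6.71 CPM in double RNAi cells and 7.59, 1.56 and 2.08 CPM in control cells. The 0 allows up to 1.26 CPM, at 3 counts, and these few reads leave mRpS5 too imprecise to follow. It was the only member without a count in every library. The members were measured somewhat more tightly than a typical gene: the SD between libraries of a group, on the log2 scale, had a median of 0.228 over the 73 members and of 0.283 over all tested genes. The loosest among members with at least 10 CPM were mRpL50 (0.415), mRpS18C (0.379) and mRpL10 (0.357).

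**Figure D1:**
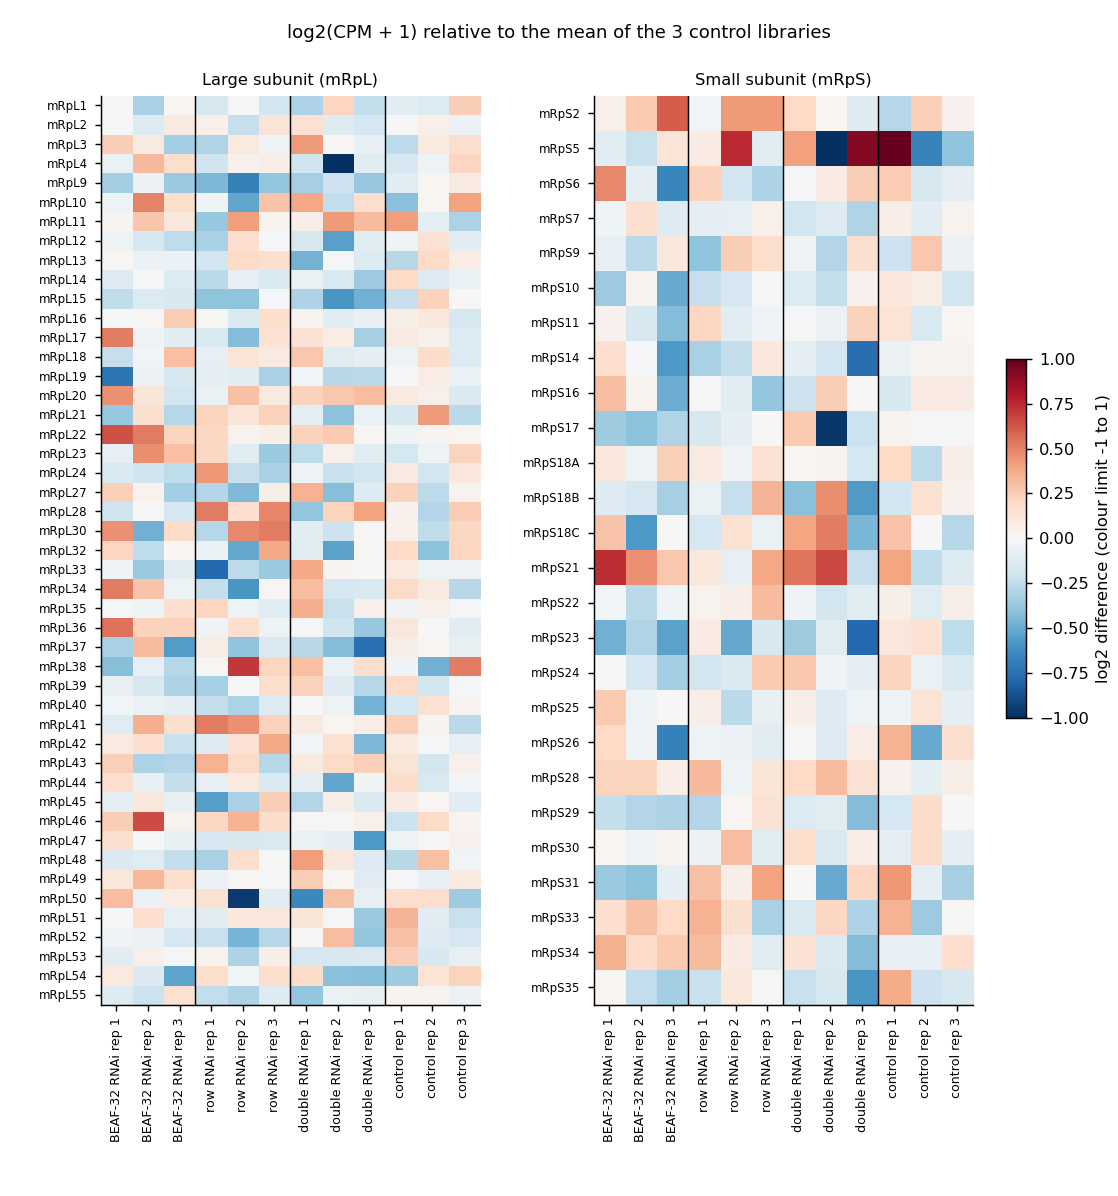
Level of each of the 73 members (rows, large subunit on the left and small on the right) in each of the 12 libraries (columns), as log2(CPM + 1) minus the mean of the 3 control libraries, with colours limited to −1 and 1. No group of 3 columns is of one colour down either panel, and the deepest colours are single libraries, such as double RNAi replicate 2 for mRpL4 (22.3 CPM) and mRpS17 (32.8 CPM), and the thinly counted mRpS5.

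Together the 73 genes took between 0.474 and 0.518% of a library's counts. Their share was 0.514, 0.505 and 0.485% in the BEAF-32 RNAi libraries, 0.480, 0.489 and 0.504% in the row RNAi libraries, 0.509, 0.485 and 0.474% in the double RNAi libraries and 0.505, 0.518 and 0.508% in the control libraries. The row RNAi libraries all lay below the control libraries, though by a narrow margin, and the BEAF-32 RNAi and double RNAi libraries overlapped them. As means these were 0.501 ± 0.0148%, 0.491 ± 0.0121%, 0.490 ± 0.0178% and 0.511 ± 0.00671% (SD, n = 3 each). Relative to control, the share differed by −1.83% in BEAF-32 RNAi cells, by −3.87% in row RNAi cells and by −4.11% in double RNAi cells. The SD between libraries, pooled over the treated group and control and taken as a percentage of the control share, was 2.24%, 1.91% and 2.64% in these comparisons, so the difference was below it in BEAF-32 RNAi cells and above it in row RNAi and double RNAi cells. That SD describes single libraries and not a difference between group means, so it is no test. On TMM-scaled totals the summed level was 4817 to 5231 CPM, 4820 to 5177 CPM, 4506 to 5133 CPM and 5022 to 5262 CPM in the same order of groups, and all 3 treated groups overlapped control. In bulk RNA, fewer cells that express these genes and less message per cell cannot be told apart.

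**Figure D2:**
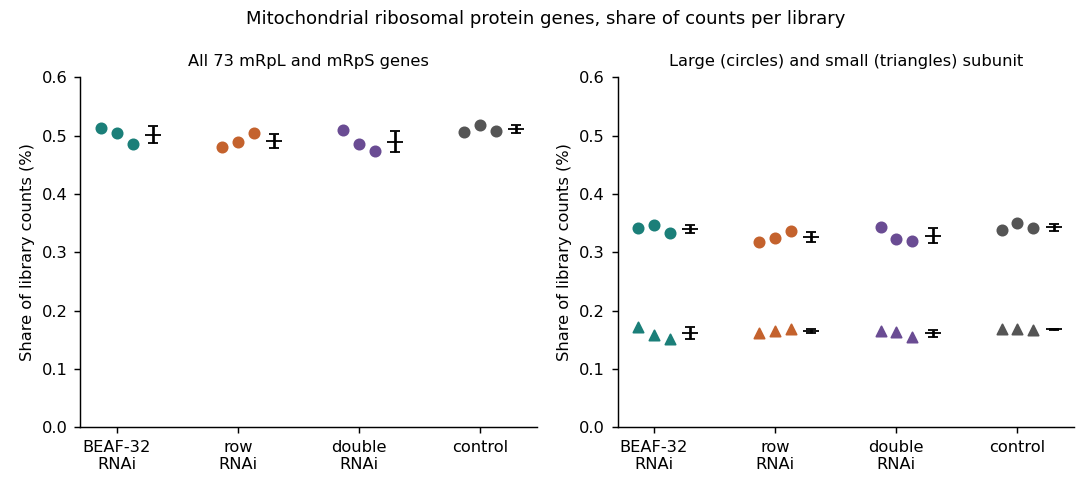
Share of library counts in percent, per library (points), with mean and SD of 3 libraries beside them, for all 73 genes (left) and for each subunit (right, circles large and triangles small). All 12 libraries lie between 0.474 and 0.518%, and the row RNAi libraries lie just below the control libraries.

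The subunits, as named by symbol, were also followed apart. Large-subunit genes held 0.340% of counts in BEAF-32 RNAi libraries, 0.326% in row RNAi libraries, 0.328% in double RNAi libraries and 0.343% in control libraries. For small-subunit genes the means were 0.161%, 0.165%, 0.161% and 0.168% in that order. The ratio of large- to small-subunit counts was 2.12 ± 0.117 in BEAF-32 RNAi libraries, 1.98 ± 0.0183 in row RNAi libraries, 2.04 ± 0.0525 in double RNAi libraries and 2.04 ± 0.0348 in control libraries. The row RNAi ratios, at most 2.00, all lay below those of the control libraries, at least 2.01, while the other treated groups overlapped control. In BEAF-32 RNAi cells the share differed from control by −0.738% for large-subunit and −4.07% for small-subunit genes. In row RNAi cells the values were −4.91% for large-subunit and −1.75% for small-subunit genes, and in double RNAi cells −4.21% and −3.92%. Small-subunit shares ran from 0.152 to 0.172% in BEAF-32 RNAi libraries, across the 0.167 to 0.168% of control libraries. Large-subunit shares ran from 0.318 to 0.336% in row RNAi libraries, just below the 0.337 to 0.350% of control libraries. Large-subunit shares in BEAF-32 RNAi and small-subunit shares in row RNAi libraries overlapped control. In double RNAi libraries the small-subunit shares, at 0.166, 0.163 and 0.155%, all lay below control. Large-subunit shares in double RNAi libraries, at 0.319 to 0.344%, overlapped control. Differences between the subunits were not tested.

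Gene by gene, the changes were small and centred near 0. The median log2 change of the 73 members was −0.03 in BEAF-32 RNAi cells, −0.04 in row RNAi cells and −0.09 in double RNAi cells, each against control, while the medians over all tested genes were −0.00066, −0.0044 and −0.00064. Of the 73, 44 lay below 0 in BEAF-32 RNAi cells (60.3%, against 50.1% of tested genes), 42 in row RNAi cells (57.5%, against 51.0%) and 48 in double RNAi cells (65.8%, against 50.1%). The treated groups share the control libraries, so these 3 values are not independent of each other. The SD between libraries of one group of the family's median log2 level was 0.0471 (pooled over groups), more than the medians in BEAF-32 RNAi and row RNAi cells and less than that in double RNAi cells. This SD comes from log2(CPM + 1) and describes single libraries, not a difference between group means, so it is a rough scale and no test. The medians also moved with single libraries. Without control replicate 1 the medians were 0.0051 in BEAF-32 RNAi cells, 0.0039 in row RNAi cells and −0.05 in double RNAi cells. Without double RNAi replicate 3 the double RNAi median was −0.04, and without BEAF-32 RNAi replicate 1 the BEAF-32 RNAi median was −0.08. Leaving out row RNAi replicate 1, 2 or 3 gave row RNAi medians of −0.0089, −0.02 and −0.06.

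Members with a bacterial number and those of the mitochondrial lineage are compared next by their medians. In double RNAi cells the median log2 change against control was −0.08 over 28 bacterial-numbered and −0.11 over 19 other large-subunit genes, and −0.02 over 14 bacterial-numbered and −0.10 over 12 other small-subunit genes. The small subunit stood at −0.10 in BEAF-32 RNAi cells and at 0.00062 in row RNAi cells. The large subunit stood at −0.02 in BEAF-32 RNAi cells and at −0.04 in row RNAi cells. The furthest from 0 in any comparison with control was −0.14, for the small-subunit genes without a bacterial number in BEAF-32 RNAi cells. Differences between these groups of members were not tested.

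**Figure D3:**
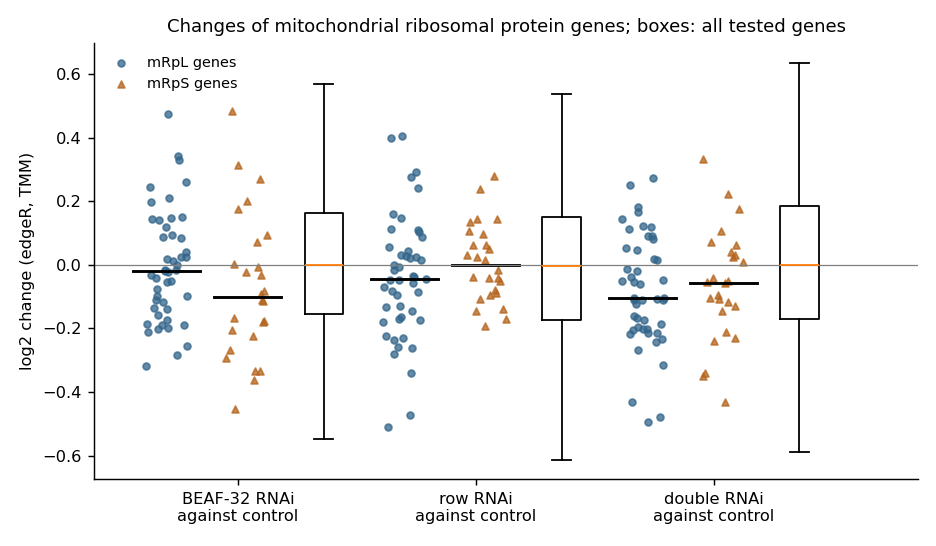
Log2 change of each member against control (points, blue circles mRpL and brown triangles mRpS, vertical axis) in the 3 treated groups, with a black bar at each subunit's median. Beside them a box gives the quartiles of all 7377 tested genes, with whiskers from the 5th to the 95th percentile, and every member lies between −0.51 and 0.49.

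The precision of each estimate limits what could have been missed. The standard error of a member's log2 change against control had a median of about 0.18, against about 0.25 for a typical tested gene. For 72 of the 73 members the 95% interval lay within a 2-fold change in either direction in each of the 3 comparisons with control, the exception being mRpS5. Over all tested genes that held for 71.9% in BEAF-32 RNAi cells, 71.7% in row RNAi cells and 70.9% in double RNAi cells. The narrower limit of a 1.5-fold change held for 48, 54 and 47 members (65.8%, 74.0% and 64.4%), against 40.6%, 40.8% and 39.0% of tested genes. In the remaining members the interval holds a 1.5-fold change in at least 1 direction, so these data do not set that limit on them. The 61 tested respiratory chain genes had a median level of 211.7 CPM, and the 1.5-fold limit held for 96.7%, 90.2% and 91.8%. For 85 tested cytoplasmic ribosomal protein genes the median level was 4401 CPM, and the limit held for 98.8% in each comparison.

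Taking all 4 groups at once, the highest group mean of a member exceeded the lowest by a median of 1.21-fold, with a range of 1.03 to 1.54. The members were read at a median of 58.4 CPM, against 31.7 CPM over all tested genes. The part of level in the ratio of highest to lowest mean was not tested. In 70 of 73 members (95.9%) this ratio was under 1.5, against 5472 of 7377 tested genes (74.2%). The remaining 3 were mRpL33 (1.54, highest in double RNAi and lowest in row RNAi cells), mRpL38 (1.54, highest in row RNAi and lowest in BEAF-32 RNAi cells) and mRpL4 (1.51, highest in BEAF-32 RNAi and lowest in double RNAi cells). No single group was the highest or lowest throughout. The lowest mean was that of double RNAi cells for 26 members (35.6%, against 26.4% of tested genes), and the highest that of control cells for 25 (34.2%, against 24.5%).

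BEAF-32 RNAi against control asked how these genes read after partial depletion of the BEAF-32 message. The level of the BEAF-32 protein was not read here. No member passed (0 of 73, against 0.0271% of tested genes), with a lowest adjusted p of 0.848. At an unadjusted p under 0.05 edgeR found 4 members, DESeq2 5 and limma-voom 4. By edgeR 2 were higher (2.74%, against 2.51% of tested genes) and 2 lower (2.74%, against 2.67%). That balance turned on single libraries: without BEAF-32 RNAi replicate 3 it was 5 higher and 0 lower, without control replicate 2 it was 1 and 0, and without BEAF-32 RNAi replicate 2 it was 3 and 3. Groups did not overlap for 5 members higher and 3 lower in BEAF-32 RNAi cells (6.85% and 4.11%), against 4.72% and 5.5% of tested genes.

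Members are named here and in the other comparisons by the smallest p-values in each direction, and none passed. Among those leaning upward, mRpL22, whose bacterial counterpart lines the exit tunnel of the large subunit, had 72.3, 66.8 and 54.1 CPM in BEAF-32 RNAi cells and 44.8, 47.2 and 46.9 CPM in control cells. The 3 BEAF-32 RNAi libraries were above the 3 control libraries, which were tight. Its row RNAi libraries, at 53.6, 47.6 and 48.2 CPM, and its double RNAi libraries, at 54.5, 55.6 and 46.8 CPM, lay nearer to control. Its log2 change was 0.47, SE 0.18, 95% interval 0.11 to 0.84, adjusted p = 0.848. The small-subunit protein gene mRpS21 had 83.9, 68.7 and 60.4 CPM in BEAF-32 RNAi cells and 65.7, 41.5 and 45.2 CPM in control cells. Here control replicate 1 lay among the treated libraries and the groups overlapped (log2 change 0.49, SE 0.20, adjusted p = 0.848). Its 3' end is overlapped by CG8870 on the opposite strand. For mRpL36, a small protein of the large subunit, the levels were 81.5, 65.6 and 65.6 CPM in BEAF-32 RNAi cells and 60.4, 55.6 and 51.4 CPM in control cells, again without overlap (log2 change 0.34, SE 0.17, adjusted p = 0.929). The large-subunit gene mRpL49 stood at 180.4, 211 and 189 CPM in BEAF-32 RNAi cells and 166, 158 and 178 CPM in control cells. Its groups were separate too, by a small step (log2 change 0.21, SE 0.11, adjusted p = 0.929).

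In the other direction stood mRpS29, which encodes the GTP-binding small-subunit protein known in mammals as DAP3. It had 112, 108 and 107 CPM in BEAF-32 RNAi cells and 117, 150.5 and 132 CPM in control cells. All 3 BEAF-32 RNAi libraries lay below the control libraries and close to each other, while the control libraries were spread out (log2 change −0.29, SE 0.13, adjusted p = 0.894). The row RNAi libraries, at 108, 134 and 147 CPM, and the double RNAi libraries, at 120.5, 122 and 98.1 CPM, overlapped control. The small-subunit gene mRpS23 had 35.0, 39.6 and 33.7 CPM in BEAF-32 RNAi cells and 53.1, 54.4 and 41.0 CPM in control cells. Its groups were separate (log2 change −0.45, SE 0.21, adjusted p = 0.918). The 3' ends of mRpS29 and mRpS23 are overlapped by opposite-strand genes, qkr58E-2 and Polr2C, and no source used here says whether reads were counted by strand. For mRpS17, whose bacterial counterpart binds the small-subunit ribosomal RNA, the levels were 50.9, 49.0 and 52.8 CPM in BEAF-32 RNAi cells and 67.2, 64.3 and 64.7 CPM in control cells. Both groups were tight and separate (log2 change −0.36, SE 0.19, adjusted p = 0.929), while the double RNAi libraries of this gene, at 78.4, 32.8 and 56.3 CPM, were spread over the whole range. Lastly mRpL19 had 47.7, 75.9 and 70.8 CPM in BEAF-32 RNAi cells and 78.95, 83.4 and 75.4 CPM in control cells. Here BEAF-32 RNAi replicate 1 was far below the other two and replicate 2 reached the control range (log2 change −0.28, SE 0.16, adjusted p = 0.93).

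**Figure D4:**
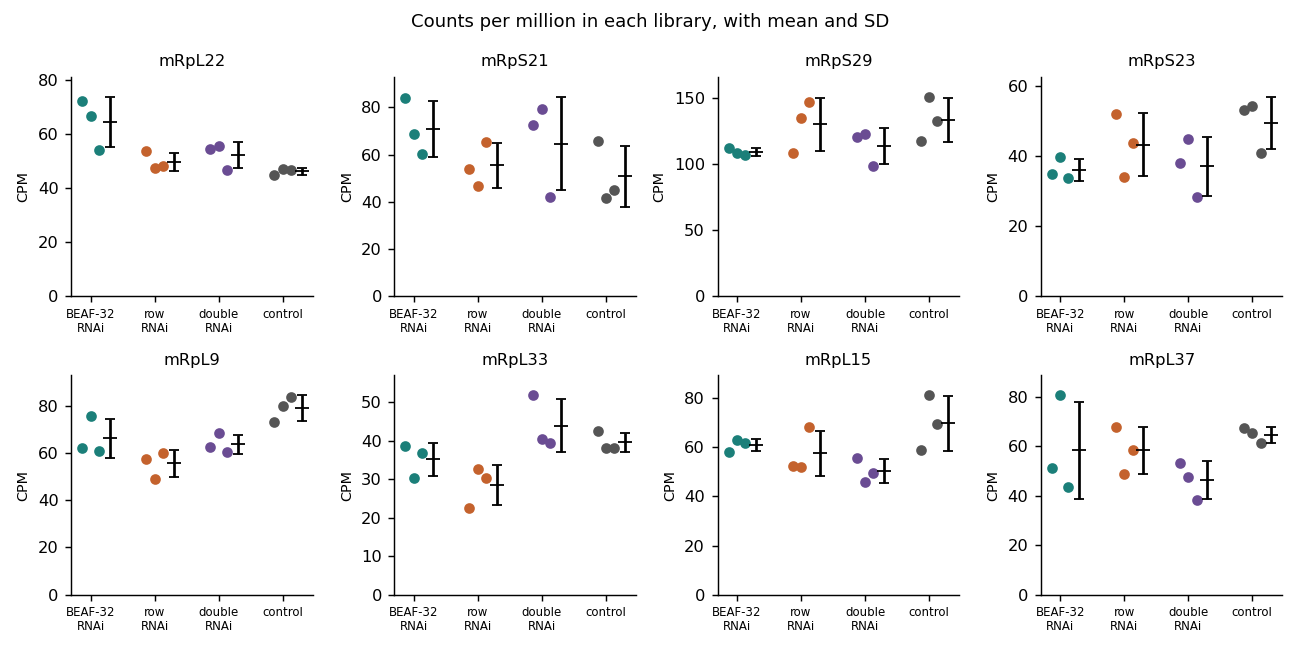
CPM of 8 named members in each library (points, vertical axis from 0), with mean and SD of 3 libraries beside each group. The upper row holds members named for BEAF-32 RNAi, such as mRpL22 with 54.1 to 72.3 CPM in BEAF-32 RNAi and 44.8 to 47.2 CPM in control cells, and the lower row those named for row RNAi (mRpL9, mRpL33) and double RNAi (mRpL15, mRpL37).

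The comparison of row RNAi with control likewise gave no call (0 of 73, against 0.19% of tested genes, lowest adjusted p = 0.358). An unadjusted p under 0.05 was reached by 2 members in edgeR, 2 in DESeq2 and 2 in limma-voom, all lower in row RNAi cells (2.74%, against 2.91% of tested genes). None was higher, against 2.82% of tested genes. Without row RNAi replicate 3 there were 5 lower, and without control replicate 2 there were 4. Groups did not overlap for 1 member higher and 6 lower (1.37% and 8.22%), against 5.69% and 6.09% of tested genes, and all 7 encode large-subunit proteins.

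The member with the smallest p was mRpL9, whose bacterial counterpart reaches out from the side of the large subunit. It had 57.6, 49.0 and 59.9 CPM in row RNAi cells and 73.3, 80.0 and 83.8 CPM in control cells. Every row RNAi library was below every control library, with a gap wider than the range within either group. The log2 change was −0.51, SE 0.16, 95% interval −0.83 to −0.18, adjusted p = 0.358. Its double RNAi libraries, at 62.5, 68.2 and 60.4 CPM, were also below control, while the BEAF-32 RNAi libraries, at 62.0, 75.6 and 60.7 CPM, overlapped it. Fkbp39 overlaps the 3' end of mRpL9 on the opposite strand. The other member under 0.05 before adjustment was mRpL33, again with a bacterial counterpart, which had 22.6, 32.8 and 30.3 CPM in row RNAi cells and 42.5, 38.1 and 38.2 CPM in control cells. Row RNAi replicate 1 was the lowest of all 12 libraries and the groups were separate (log2 change −0.47, SE 0.22, adjusted p = 0.804).

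Next came mRpL52, of the mitochondrial lineage, with 62.6, 52.7 and 59.9 CPM in row RNAi cells and 89.96, 67.2 and 65.3 CPM in control cells. The groups were separate, but control replicate 1 stood well above the other controls (log2 change −0.34, SE 0.17, adjusted p = 0.85). The member with the most counts, mRpL14, had 233, 265 and 252 CPM in row RNAi cells and 321, 257 and 267 CPM in control cells. Its groups overlapped and control replicate 1 was again the highest (log2 change −0.17, SE 0.10, adjusted p = 0.883). Of the members leaning upward, mRpL41 had 44.0, 42.0 and 35.8 CPM in row RNAi cells and 36.1, 30.9 and 25.02 CPM in control cells. Row RNAi replicate 3 lay just below control replicate 1, so the groups overlapped (log2 change 0.41, SE 0.22, adjusted p = 0.877). The other three taken by that order of p-values had log2 changes of 0.40 for mRpL28 (adjusted p = 0.883), 0.28 for mRpS2 (adjusted p = 0.989) and 0.24 for mRpL46 (adjusted p = 0.987).

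With both dsRNAs the family leaned furthest below 0, and still no member passed (0 of 73, against 0.271% of tested genes, lowest adjusted p = 0.368). At an unadjusted p under 0.05 edgeR found 7 members lower (9.59%, against 4.55% of tested genes) and none higher (against 4.08%). The count depended on the tool and scaling: DESeq2 found 2 and limma-voom 9, and edgeR on unscaled library totals 3. Leaving out 1 library gave 3 to 9 members lower, with 3 on leaving out control replicate 2 or double RNAi replicate 3. Groups did not overlap for 2 members higher and 8 lower (2.74% and 10.96%), against 6.52% and 6.6% of tested genes.

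Of those lower, mRpL15, with a bacterial counterpart in the large subunit, had 55.8, 45.9 and 49.4 CPM in double RNAi cells and 58.8, 81.2 and 69.5 CPM in control cells. The groups did not overlap, and the controls ranged widely. Its log2 change was −0.48, SE 0.18, 95% interval −0.83 to −0.13, adjusted p = 0.368. For mRpL37, of the mitochondrial lineage, the levels were 53.1, 47.6 and 38.1 CPM in double RNAi cells and 67.2, 65.3 and 61.2 CPM in control cells. The controls were tight and all above the double RNAi libraries (log2 change −0.49, SE 0.19, adjusted p = 0.465). The small-subunit gene mRpS14 had 119.6, 112 and 75.8 CPM in double RNAi cells and 123, 131 and 131 CPM in control cells. Its groups were separate, and double RNAi replicate 3 was well below replicates 1 and 2 (log2 change −0.34, SE 0.16, adjusted p = 0.547). A gene on the same strand, CG32533, overlaps the 3' end of mRpS14, so its counts are uncertain. For mRpL4, whose bacterial counterpart helps form the exit tunnel, the levels were 45.2, 22.3 and 48.0 CPM in double RNAi cells and 46.3, 50.3 and 60.8 CPM in control cells. Only replicate 2 of the double RNAi libraries stood far out and the groups overlapped (log2 change −0.43, SE 0.21, adjusted p = 0.552). Without that library the log2 change of mRpL4 was −0.17 (adjusted p = 0.951).

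Upward, mRpL20 had 83.7, 85.9 and 88.5 CPM in double RNAi cells and 75.9, 73.7 and 64.3 CPM in control cells. The double RNAi libraries were close together and all above control (log2 change 0.27, SE 0.16, adjusted p = 0.662). For mRpS28 the levels were 52.7, 57.2 and 50.6 CPM in double RNAi cells and 47.1, 42.8 and 47.6 CPM in control cells, also separate by a small step (log2 change 0.22, SE 0.19, adjusted p = 0.815). In mRpS21 and mRpL11 the groups overlapped, with log2 changes of 0.33, SE 0.20, adjusted p = 0.668, and 0.25, SE 0.22, adjusted p = 0.834.

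**Figure D5:**
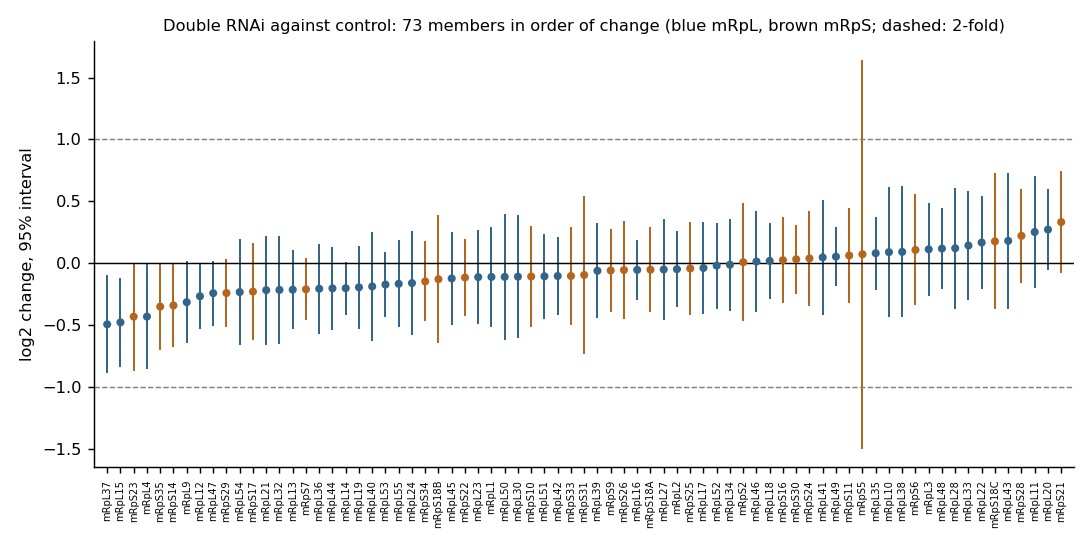
Log2 change in double RNAi against control with its 95% interval (vertical axis) for the 73 members in order of change, mRpL in blue and mRpS in brown, with dashed lines at a 2-fold change. The intervals of 72 members lie between the dashed lines, and that of mRpS5 crosses both.

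The treated groups were also set against each other, to ask which members differ between the dsRNAs. On means, each target message was less depleted by both dsRNAs than by its own alone, and the part of this in the comparisons was not tested. None passed in row RNAi against BEAF-32 RNAi (0 of 73, against 0.339% of tested genes), in double RNAi against BEAF-32 RNAi (0 of 73, against 0.122%) or in double RNAi against row RNAi (0 of 73, against 0.0% of tested genes). The medians of the members were −0.02, −0.06 and −0.04. Unadjusted p-values under 0.05 were found by edgeR, DESeq2 and limma-voom for 5, 5 and 5 members in row RNAi against BEAF-32 RNAi. In double RNAi against BEAF-32 RNAi the counts were 4, 3 and 4, and in double RNAi against row RNAi 1, 1 and 1. By edgeR, 2 were higher and 3 lower in row RNAi than in BEAF-32 RNAi cells (2.74% and 4.11%, against 3.52% and 3.84% of tested genes). In double RNAi against BEAF-32 RNAi none was higher and 4 were lower (5.48%, against 3.92%, with 3.7% of tested genes higher), and in double RNAi against row RNAi 1 was higher and none lower (1.37%, against 2.86%, with 3.35% of tested genes lower). These counts turn on single libraries. In double RNAi against BEAF-32 RNAi, 10 were lower without BEAF-32 RNAi replicate 3, 8 on leaving out replicate 1 of the double RNAi libraries, and 2 on leaving out their replicate 3. In double RNAi against row RNAi, 0 were higher and 7 lower without row RNAi replicate 1, and 0 and 5 without double RNAi replicate 1. Leaving out replicate 2 of the double RNAi libraries gave 1 and 4, and leaving out their replicate 3 gave 3 and 2. In row RNAi against BEAF-32 RNAi, 1 was higher and 0 lower without row RNAi replicate 2, and 0 and 2 without BEAF-32 RNAi replicate 1.

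The smallest adjusted p of any member in any comparison belonged to mRpL36 in double RNAi against BEAF-32 RNAi, with 54.9, 48.4 and 42.7 CPM in double RNAi cells and 81.5, 65.6 and 65.6 CPM in BEAF-32 RNAi cells. The groups were separate, with all BEAF-32 RNAi libraries above the control libraries and double RNAi replicates 2 and 3 below them. The log2 change was −0.55, SE 0.18, 95% interval −0.90 to −0.20, adjusted p = 0.278. For mRpL4 the levels were 45.2, 22.3 and 48.0 CPM in double RNAi cells and 49.7, 65.6 and 59.0 CPM in BEAF-32 RNAi cells, separate but led by the low replicate 2 of the double RNAi libraries (log2 change −0.58, SE 0.21, adjusted p = 0.401). Between row RNAi and BEAF-32 RNAi, mRpL34 had 53.9, 42.4 and 64.9 CPM in row RNAi cells and 92.2, 78.4 and 61.8 CPM in BEAF-32 RNAi cells. Row RNAi replicate 3 exceeded BEAF-32 RNAi replicate 3, so the groups overlapped (log2 change −0.52, SE 0.18, adjusted p = 0.321). In mRpL38 the levels were 26.6, 43.8 and 30.9 CPM in row RNAi cells and 19.5, 24.98 and 21.5 CPM in BEAF-32 RNAi cells. These groups were separate (log2 change 0.61, SE 0.26, adjusted p = 0.559), but the control libraries, at 25.8, 18.7 and 38.2 CPM, overlapped both.

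The same order of p-values also gave, in row RNAi against BEAF-32 RNAi, log2 changes of −0.37 for mRpL22 (adjusted p = 0.668) and 0.54 for mRpL28 (adjusted p = 0.592). In double RNAi against BEAF-32 RNAi it gave 0.41 for mRpL38 (adjusted p = 0.764) and 0.31 for mRpL48 (adjusted p = 0.681). In double RNAi against row RNAi it gave 0.32 for mRpL52 (adjusted p = 0.832), −0.35 for mRpL37 (adjusted p = 0.869) and −0.40 for mRpL4 (adjusted p = 0.813).

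Between double RNAi and row RNAi the member furthest apart was mRpL33, at 51.8, 40.4 and 39.6 CPM in double RNAi cells and 22.6, 32.8 and 30.3 CPM in row RNAi cells. The groups were separate (log2 change 0.61, SE 0.22, adjusted p = 0.624), and the BEAF-32 RNAi libraries, at 38.5, 30.3 and 36.8 CPM, overlapped the row RNAi libraries. The interaction asks whether the change under both dsRNAs differs from the sum of the single changes on the log2 scale. A response to dsRNA as such is part of each single change and of the double change, so it need not cancel. On means, both dsRNAs left BEAF-32 at 52.3% of control, and its own dsRNA alone at 36.7%. For row these values were 61.9% and 51.7%. Neither difference passed (edgeR, adjusted p = 0.57 and 0.935). The interaction thus cannot single out joint action of the targeted genes. No member passed the interaction (0 of 73, against 0.0% of tested genes). At an unadjusted p under 0.05 edgeR found 1 above 0 and 2 below (1.37% and 2.74%, against 2.13% and 2.29% of tested genes), DESeq2 5 and limma-voom 3. For mRpL33 the interaction was 0.79, SE 0.31, adjusted p = 1. The others by smallest p were mRpL36 (−0.58, SE 0.25, adjusted p = 1), mRpL9 (0.45, SE 0.23, adjusted p = 1) and mRpS34 (−0.51, SE 0.22, adjusted p = 1).

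The stalk of the large subunit, which recruits the translation factors, was read in both of its proteins. The protein mRpL12 had 149, 137 and 128 CPM in BEAF-32 RNAi cells, 122, 173 and 152 CPM in row RNAi cells, 137, 105 and 141 CPM in double RNAi cells and 149.6, 169.6 and 142 CPM in untreated cells. The double RNAi libraries all lay below the control libraries, by less than the spread of either group, and mRpL12 was among the 7 members under 0.05 before adjustment there (adjusted p = 0.557). The BEAF-32 RNAi and row RNAi libraries overlapped control. The stalk's anchor mRpL10 had 26.2, 38.7 and 30.9 CPM in BEAF-32 RNAi cells, 26.3, 18.6 and 33.4 CPM in row RNAi cells, 35.9, 22.7 and 30.7 CPM in double RNAi cells and 20.1, 27.5 and 36.1 CPM in untreated cells. Its libraries overlapped across all 4 groups, and the spread within control alone covered most of the whole range.

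The genes are spread over the genome: 11 lie on chromosome arm X, 12 on 2L, 12 on 2R, 17 on 3L and 21 on 3R, by the count table. As shares these are 15.1%, 16.4%, 16.4%, 23.3% and 28.8%, against 17.1%, 17.7%, 20.4%, 19.1% and 24.4% of tested genes. For 58 of the 73 members (79.5%) the nearest non-overlapping annotated coding gene upstream, at any distance, lies on the opposite strand, against 63.0% of tested coding genes. The distance was not measured, so these pairs are not shown to have closely spaced promoters. Of the 58 neighbours 48 were tested, and none was called in BEAF-32 RNAi, row RNAi or double RNAi cells against control (lowest adjusted p = 0.848, 0.721 and 0.496). Of all tested genes only 0.0271%, 0.19% and 0.271% were called there, so no call among 48 says little about the neighbours. The median log2 changes of the tested neighbours were −0.08, −0.0023 and 0.03 in that order. The 3' end of 42 members (57.5%) is overlapped by another annotated gene, against 39.9% of tested coding genes. Those members' counts are uncertain to that extent, as no source used here says whether reads were counted by strand. Besides the members marked above they include mRpL4, mRpL10, mRpL11, mRpL15, mRpL16, mRpL28, mRpL34, mRpL41, mRpL43, mRpL48 and mRpL50, each overlapped on the opposite strand. The same holds for mRpS2, mRpS18C, mRpS28, mRpS31 and mRpS34.

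The wider machinery of mitochondrial translation and respiration gave no call in the comparisons with control either. Calls were rare there over all tested genes too, at 0.0271% in BEAF-32 RNAi, 0.19% in row RNAi and 0.271% in double RNAi cells. Outside the mRpL and mRpS symbols, the gene tko encodes the small-subunit protein of the decoding site and averaged 590.5 ± 71.2 CPM in BEAF-32 RNAi cells, 530.1 ± 14.1 CPM in row RNAi cells, 573 ± 69.6 CPM in double RNAi cells and 606 ± 77.3 CPM in control cells (SD, n = 3 each). Its log2 change in row RNAi cells was −0.19 (SE 0.09, adjusted p = 0.802). Another such gene, bonsai, encodes the small-subunit S15 protein and averaged 48.8 ± 4.50, 43.9 ± 3.42, 42.1 ± 10.99 and 45.7 ± 12.4 CPM in that order.

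None of 10 mitochondrial translation factors, 15 aminoacyl-tRNA synthetases, 13 genes for transcription, RNA handling and upkeep of mitochondrial DNA, 9 nuclear regulators, 61 tested respiratory chain genes or 85 tested cytoplasmic ribosomal protein genes was called in a comparison with control. In double RNAi cells 52 of the 61 respiratory chain genes lay below 0 (median log2 change −0.11), and 79 of the 85 cytoplasmic ribosomal protein genes (median −0.06), beside the 48 of 73 mitoribosomal genes (median −0.09). In BEAF-32 RNAi cells 24 of the 61 and 26 of the 85 lay below 0, with medians of 0.03 and 0.02. The 10 translation factors, which are imprecise at a median SE of about 0.33, had medians of −0.27 in BEAF-32 RNAi cells, −0.05 in row RNAi cells and −0.40 in double RNAi cells. The cytoplasmic ribosomal protein genes took 38.4 to 42.1% of a library's counts, and so weigh on the total. With them left out of it, the mitoribosomal share differed from control by −0.82% in BEAF-32 RNAi cells, by −3.69% in row RNAi cells and by −5.23% in double RNAi cells. Of the 15 synthetases 11 lay above 0 in double RNAi cells (median 0.13).

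Single genes of these lists are given for their small p-values, and none passed. The co-activator gene srl, the fly homologue of PGC-1 and known as a driver of mitochondrial gene expression, had 28.6, 30.7 and 25.6 CPM in row RNAi cells and 64.5, 40.0 and 43.1 CPM in control cells. The row RNAi libraries were all below control (log2 change −0.79, SE 0.23, adjusted p = 0.205), and its BEAF-32 RNAi libraries, at 48.1, 50.3 and 38.5 CPM, and double RNAi libraries, at 35.9, 24.8 and 48.9 CPM, overlapped control. From the same list Myc, a transcription factor known for raising ribosome production, had 288, 348 and 371 CPM in double RNAi cells, 306, 329.5 and 331 CPM in row RNAi cells and 252, 259.9 and 273 CPM in control cells. Both treated groups lay above control, with log2 changes of 0.36 in double RNAi cells (SE 0.10, adjusted p = 0.107) and 0.30 in row RNAi cells (SE 0.10, adjusted p = 0.444), while the BEAF-32 RNAi libraries overlapped control. Without double RNAi replicate 1 Myc passed in double RNAi cells (adjusted p = 0.0271). SLIRP2, which belongs to a family of RNA-binding proteins that stabilise mitochondrial messages in mammals, had 35.9, 30.3 and 34.8 CPM in double RNAi cells and 60.0, 49.7 and 42.8 CPM in control cells, without overlap (log2 change −0.59, SE 0.20, adjusted p = 0.279). The elongation factor Ts gene CG6412 had 27.5, 21.5 and 32.9 CPM in double RNAi cells and 41.4, 28.4 and 51.4 CPM in control cells. Its groups overlapped (log2 change −0.55, SE 0.23, adjusted p = 0.4997). On leaving out 1 library the log2 change of srl in row RNAi cells ran from −0.925 to −0.552. In double RNAi cells the ranges were 0.28 to 0.459 for Myc, −0.701 to −0.456 for SLIRP2 and −0.753 to −0.337 for CG6412.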

How the data were processed

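Total RNA of S2 cells was made into 3'-end libraries, per the labels' protocols, with oligo-dT primers holding an 8-base molecular identifier and a 7-base barcode, starting from 100 ng. Reads were aligned with STAR to dm3, per the submitters' processing notes, with no version given. How reads were assigned to genes, by which annotation, by strand or not, and with or without collapse of molecular identifiers, is not stated in the labels. The authors deposited raw counts per gene for 16718 genes in 12 libraries, not normalized, of which 5628 genes had no count in any library. Groups came from the labels and columns were tied to samples by name.

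The analysis used edgeR 4.0.16 in R 4.3.3. A filter on low counts (filterByExpr on the groups, minimum count 10) left 7377 genes, and libraries were scaled by TMM (factors 0.962 to 1.05). A robust quasi-likelihood model was fitted to all 12 libraries with group as the only term (8 residual degrees of freedom, prior degrees of freedom with a median of 51.4, common biological coefficient of variation 0.172). Benjamini-Hochberg adjustment ran over all tested genes in each of 7 comparisons, with a threshold of 0.05. The SE is the absolute log2 change over the square root of F. The limit of 3 counts at a count of 0 covers counting error only. DESeq2 1.42.0 and limma-voom (limma 3.58.1), other scalings and filters, a replicate block, fits of only the groups compared, and fits without each library were the alternatives. The fitting steps were tested on simulated counts. No 2 libraries of a group agreed within sampling noise (chi-square per degree of freedom 3.71 to 6.42).

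The members and gene lists were chosen with earlier results of these data known, so the family got no test of its own. Members were named by the smallest unadjusted p in each direction (up to 4 per comparison with control, up to 2 in the others, mean CPM at least 10). Added to these were the 3 highest and 3 lowest levels, the 3 largest SDs, the stalk proteins and mRpS29. All 73 symbols matched the BDGP6.54 annotation. It is another build than dm3, so it served for names, overlaps and neighbours, and no coordinates are printed. Messages of mitochondrial DNA were not analysed here.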

Additional observations from a re-analysis of the deposited data

How the results depend on the processing

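No member was called in any of the 7 comparisons under any alternative run, and the lowest adjusted p of any member was 0.179. The 40 log2 changes printed for named members kept their sign under every alternative, but each was named for a small p in its direction, so the sign was largely given. Their sizes were less firm, and 16 of the 40 moved by over 1.5 times on leaving out 1 library. In BEAF-32 RNAi cells mRpL19 went to −0.11 without BEAF-32 RNAi replicate 1. In row RNAi cells, without control replicate 1, mRpL14 went to −0.0672, mRpL52 to −0.18, mRpL46 to 0.141 and mRpS2 to 0.149, and mRpL28 to 0.258 without control replicate 2. In double RNAi cells mRpS14 went to −0.153 without double RNAi replicate 3, mRpS21 to 0.156 and mRpL4 to −0.168 without double RNAi replicate 2, and mRpL11 to 0.0993 without control replicate 3. Without double RNAi replicate 2, mRpL4 went to −0.319 against BEAF-32 RNAi and to −0.134 against row RNAi, and mRpL52 to 0.138 against row RNAi. Without double RNAi replicate 3 mRpL37 went to −0.216 against row RNAi, without double RNAi replicate 1 mRpL48 to 0.154 against BEAF-32 RNAi, and without row RNAi replicate 2 mRpL38 to 0.388 in row RNAi against BEAF-32 RNAi. Of 81 further values of named members in comparisons with control, 41 changed sign under some alternative and 0 were called. The medians of the family are less firm. On library totals without TMM scaling the median was 0.0183 in double RNAi against row RNAi and 0.0489 in the interaction, against −0.04 and −0.01 with it. The medians of all tested genes moved there as well, to 0.0495 and 0.063. The members stood −0.031 and −0.014 from those, against −0.034 and −0.013 with TMM scaling, so their place among tested genes hardly moved. The unscaled median of the family moved in other comparisons also. It was −0.0509 in double RNAi against control and −0.0146 in double RNAi against BEAF-32 RNAi, against −0.09 and −0.06 with it. The medians of all tested genes moved too, to 0.0344 and 0.0409 in these 2 comparisons, and the members stood −0.0853 and −0.0555 from them. Leaving out 1 library in turn gave medians of −0.0849 to 0.0051 in BEAF-32 RNAi, −0.0635 to 0.0039 in row RNAi and −0.112 to −0.0406 in double RNAi cells against control. Between treated groups the ranges were −0.0327 to 0.0128 in row RNAi against BEAF-32 RNAi, −0.119 to −0.00227 in double RNAi against BEAF-32 RNAi, −0.0977 to −0.0134 in double RNAi against row RNAi, and −0.0761 to 0.0543 in the interaction. The share of counts differed from control by −3.06 to −0.241% in BEAF-32 RNAi, −5.14 to −2.8% in row RNAi and −6.03 to −2.61% in double RNAi cells on leaving out 1 library, and with mRpS genes alone by −4.07% in BEAF-32 RNAi and −1.75% in row RNAi cells. The cause of these movements was not tested.

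No sign was found that the replicate numbers pair the samples. Same-numbered libraries of different groups had correlations of their deviations from −0.117 to 0.0617, and 0 of 18 exceeded 0.1. Other pairs ran from −0.111 to 0.0949. Counting noise weakens such correlations, so they cannot decide whether libraries were handled in pairs. With the replicate number as a block the medians against control were −0.04 in BEAF-32 RNAi, −0.03 in row RNAi and −0.09 in double RNAi cells, and 0 members were called. With 3 libraries a group and a median SE of about 0.18, the 95% intervals of 48, 54 and 47 members against control in BEAF-32 RNAi, row RNAi and double RNAi cells exclude a 1.5-fold change either way.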
